A study of Mus musculus with 4 samples.

Results

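Autophagy machinery and its cargo receptors were followed in bulk RNA from cervical tissue of mice with and without Becn1 in myeloid cells. Members were 35 genes named by function, without the Beclin-1 lipid kinase complex, out of 38087 genes in the counts table. Of these, 34 were found by gene symbol and Atg101 under its older symbol, through its Entrez ID in RefSeq. All 35 passed the filter on low counts.

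The WT group was 2 samples labelled wild type, and the KO group was 2 samples labelled Becn1-M-KO, with the genotype given as Becn1 KO and the series describing a myeloid deletion. All 4 were C57BL/6, from postnatal week 20, and labelled cervical lymph node. By the series title the KO samples were B cell lymphomas. A difference between genotypes therefore cannot be told apart from one between tumour and whatever tissue the WT samples held. Neither the Cre driver nor the number of animals is stated in the labels, and the p-values describe the spread among 4 samples, which may be technical. In bulk tissue, fewer cells of a type and less RNA per cell cannot be told apart.

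Autophagy encloses cytoplasm in a double membrane and delivers it to lysosomes. The ULK1 kinase complex starts the process, membrane is supplied by ATG9A vesicles and ATG2 lipid transfer, and a ubiquitin-like conjugation system attaches ATG8 proteins (LC3 and GABARAP) to the growing membrane. Cargo receptors such as p62, the product of Sqstm1, bind both cargo and ATG8 proteins, and TFEB and TFE3 switch on lysosomal and autophagy genes. Myeloid cells use the pathway to digest microbes and to limit inflammation.

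Library totals ranged from 15604247 to 20067004 reads, at which 3 reads, the limit for a gene with none, equal 0.149 to 0.192 CPM (reads scaled to library size). The first WT library stood apart. Summed markers of B cells (5 genes) came to 2.79 CPM of the library total there. They came to 1215 CPM in the other WT library and to 2193 and 2095 CPM in the KO libraries. T cell markers (7 genes) gave 5.08 and 657 CPM for WT, then 539 and 525 CPM for KO. No B or T cell marker was at 0 reads in any library. Salivary and other epithelial markers (8 genes) summed to 1294 and 5480 CPM in WT and to 18.3 and 26.6 in KO. In KO replicate 1, 2 of the 8 were at 0 reads. WT levels are therefore not taken as those of lymph node alone, although every sample carries that label. Macrophage and monocyte markers (7 genes) summed to 91.4 and 909 CPM in WT and to 1056 and 1011 in KO. Xist, expressed from the inactive X chromosome, had 2088 and 5314 WT reads but 3 and 34 KO reads. The Y-linked Eif2s3y had 1 and 6 WT reads but 767 and 1083 KO reads, so sex went with genotype. The part of these differences in the results on autophagy genes was not tested. Becn1 itself had 54.8 and 63.4 CPM in WT and 49.5 and 53.3 in KO (log2 fold change −0.20, SE 0.21, adjusted p = 0.557), which does not check a deletion confined to myeloid cells.

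No autophagy gene passed the test between KO and WT. The calls numbered 0 of 35 with edgeR's quasi-likelihood test (Benjamini-Hochberg adjusted p under 0.05), where 1.04% of all 20695 genes tested were called higher and 2.18% lower. At an unadjusted p under 0.05, 1 member was higher (Tfe3) and 7 were lower, beside 10.5% and 16.4% of all genes. With DESeq2, 0 were called higher and 3 lower (Map1lc3a, Wipi1 and Gabarapl1), where 6.4% and 11.7% of all genes were called, and limma-voom called 0, where it called 1.21% of all genes higher and 1.95% lower. The median log2 fold change over the 35 was −0.32, against 0.010 over all genes tested, with 9 positive and 26 negative values from −3.31 (Map1lc3a) to 1.22 (Atg16l2).

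Levels below are CPM with TMM factors, which correct for a few genes taking many reads, except where library totals are named. The factors were 0.513 and 1.18 in WT and 1.28 and 1.30 in KO, so this scale raises levels in WT replicate 1. Under this scale both KO libraries were lower than both WT libraries for 20 members and higher for 6, against 33.3% and 34.3% of all genes. By library totals they were lower for 5 and higher for 13, against 15% and 51% of all genes. With library totals alone, the median over all genes moved from 0.010 to 0.60. The members' median turned to 0.33, and 27 of 35 values were positive, against 9 with TMM. Relative to the median of all genes the members' median was −0.33 with TMM and −0.27 with library totals. Groups that did not overlap in the same direction under both scales numbered 5 lower (Map1lc3a, Wipi1, Gabarapl1, Nbr1 and Map1lc3b) and 6 higher (Atg16l2, Tfe3, Tfeb, Atg2a, Atg12 and Atg2b). Among all genes these shares were 15% and 34.3%, so the 5 lower members are near the background and the 6 higher are below it.

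**Figure D1:**
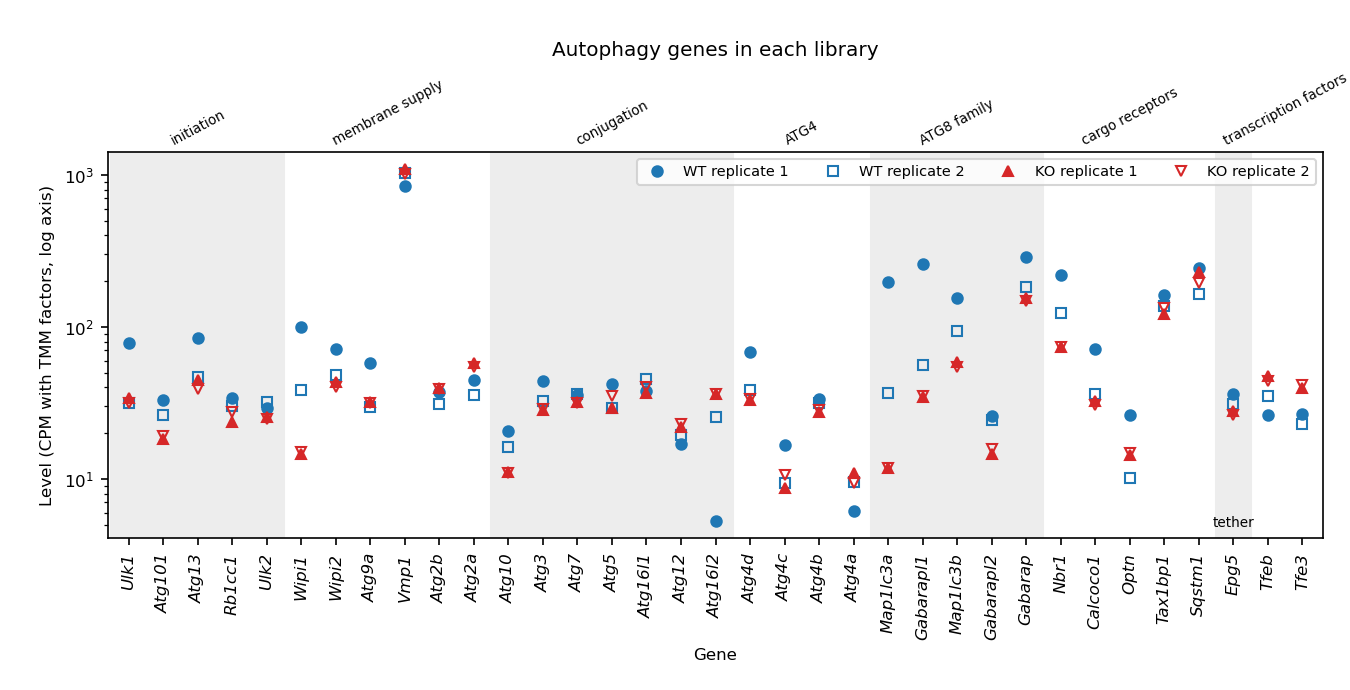
Level of each of the 35 autophagy genes in the 4 libraries (CPM with TMM factors, log axis), grouped by role and ordered within a role by fold change; circles and squares are the WT libraries and triangles the KO libraries. The KO symbols lie almost on top of each other, while the WT symbols of Map1lc3a, at 197 and 36.6 CPM, lie far apart.

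The ATG8 family, the ubiquitin-like proteins that coat the autophagosome membrane, held the lowest value of all 35 genes. All 5 members had negative log2 fold changes, from −3.31 to −0.64 with a median of −1.14, and 0 passed the test. By library totals 4 of the 5 were negative, with a median of −0.39. Map1lc3a, which encodes LC3A (chromosome 2, 155276297 to 155278073), stood at 197 and 36.6 CPM in WT and at 11.8 and 11.8 CPM in KO. Both KO libraries were lower than either WT library, and WT replicate 1 was far above WT replicate 2. This gave a log2 fold change of −3.31 (SE 0.91, adjusted p = 0.128), and −1.63 against WT replicate 2 alone and −4.08 against WT replicate 1 alone.

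Map1lc3b, which encodes LC3B, the form most used as an autophagosome marker, stood at 156 and 94.1 CPM in WT and at 58.6 and 54.4 CPM in KO. Its value was −1.14 (SE 0.34, adjusted p = 0.138), with no overlap between groups. Its whole span lies within Gm20388, a gene on the same strand with 25950 to 84445 reads per library, so the assignment of its reads is uncertain. Gabarapl2, a GABARAP paralogue with roles in Golgi traffic, stood at 25.8 and 24.4 CPM in WT and at 14.5 and 15.8 CPM in KO (−0.73, SE 0.20, adjusted p = 0.123). WT libraries were close for this gene, but by library totals the groups overlapped (13.3 and 28.6 against 18.5 and 20.4 CPM). Gabarapl1 stood at 258 and 56.2 CPM in WT and at 34.5 and 35.3 CPM in KO (−2.17, SE 0.81, adjusted p = 0.192), highest in WT replicate 1. Gabarap had a value of −0.64, and 0.095 with library totals.

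Shares of reads within the family do not depend on the scaling between libraries. Map1lc3a took 21.3% of ATG8 family reads in WT replicate 1 (95% Clopper-Pearson interval 20.4% to 22.3%), 9.29% in WT replicate 2 (8.67% to 9.93%), 4.31% in KO replicate 1 (3.78% to 4.88%) and 4.46% in KO replicate 2 (3.99% to 4.98%). Gabarap took 31.0% and 46.4% in WT and 56.3% and 55.7% in KO. So the LC3A share was lower and the GABARAP share higher in both KO libraries than in either WT library. Shares sum to the whole, so a fall in some raises the others. Gabarap itself stood at 287 and 183 CPM in WT and at 154 and 148 CPM in KO with TMM, and overlapped by library totals. For Gabarapl1 the shares were 28% and 14.3% in WT and 12.6% and 13.3% in KO, with only WT replicate 1 far from the rest. These intervals cover counting error only, and a share of reads between genes also reflects their lengths. Members of this family are similar in sequence, so reads could be split between them and their copies. The Map1lc3b reads, whose assignment is uncertain, enter the family total of each share.

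**Figure D2:**
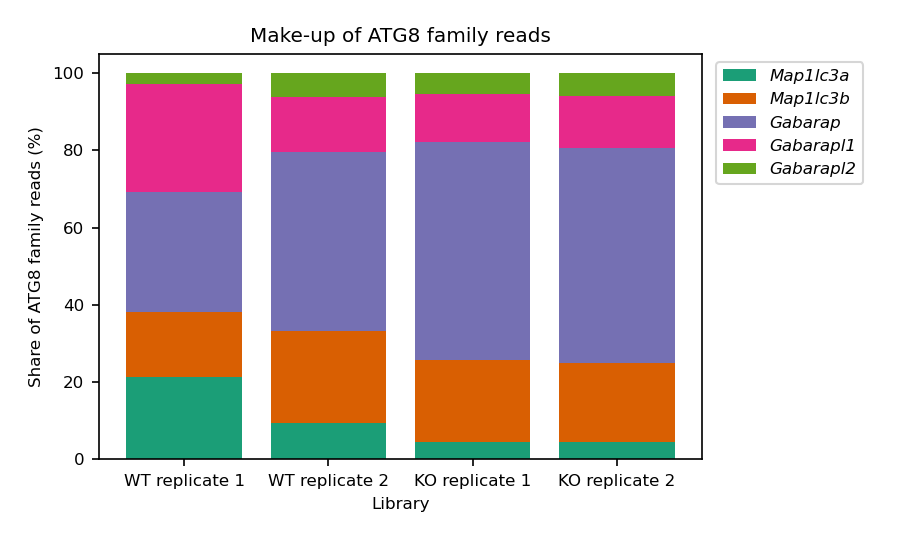
Share of the reads of the 5 ATG8 family genes taken by each gene (%, bars stacked to the whole) in the 4 libraries. The Map1lc3a share is 21.3% and 9.29% in WT and 4.31% and 4.46% in KO, and the Gabarap share is largest in KO.

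Genes of the initiation complex, which senses nutrient signals and starts autophagosome formation, all had negative values with TMM (5 of 5, from −0.74 to −0.29), and 0 passed the test. By library totals 4 of the 5 turned positive, Ulk1, Ulk2, Rb1cc1 and Atg13, with a median of 0.13. Ulk1, the initiating kinase, stood at 77.9 and 31.7 CPM in WT and at 34 and 31.5 CPM in KO (−0.74, SE 0.49, adjusted p = 0.384). With TMM its KO levels lay on either side of WT replicate 2 and only WT replicate 1 was high. The value against WT replicate 2 alone was then 0.052. By library totals WT replicate 1 was not high, and both KO libraries were above both WT libraries (43.3 and 40.8 against 40.0 and 37.1 CPM). Atg101, a stabilizing subunit that binds ATG13, stood at 33.0 and 26.4 CPM in WT and at 18.3 and 19.0 CPM in KO (−0.67, SE 0.22, adjusted p = 0.160). Both KO libraries were lower here, but by library totals the groups overlapped and the value was −0.0018. Atg13, the scaffold Rb1cc1 (FIP200) and the second kinase Ulk2 had values of −0.64, −0.32 and −0.29.

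Membrane supply and its phosphoinositide readers gave values in both directions, 3 positive and 3 negative with TMM and 5 positive and 1 negative by library totals, and 0 passed. Wipi1, which binds phosphatidylinositol 3-phosphate made by the Beclin-1 complex (chromosome 11, 109573331 to 109611967), stood at 99.3 and 38.4 CPM in WT and at 14.6 and 15.1 CPM in KO. Its value of −2.21 (SE 0.53, adjusted p = 0.103) had the smallest adjusted p of the 35 genes. It was −1.37 against WT replicate 2 alone, −2.75 against WT replicate 1 alone and −1.33 with library totals. Its paralogue Wipi2, which recruits ATG16L1, had a value of −0.51. Wipi1 took 58.1% and 44.2% of the reads of the pair in WT and 25.1% and 27.2% in KO.

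Atg2a, one of a pair of lipid transfer proteins that feed membrane to the autophagosome, stood at 45.0 and 35.7 CPM in WT and at 57.8 and 54.1 CPM in KO (0.47, SE 0.22, adjusted p = 0.266). Both KO libraries were above both WT libraries. Atg2b had a value of 0.21 and Atg9a, the vesicle scramblase, of −0.46, or 0.092 against WT replicate 2 alone. For Vmp1, an endoplasmic reticulum scramblase, 6990 and 21449 reads were counted in the WT libraries and 21602 and 26372 in the KO libraries (0.17, SE 0.41, adjusted p = 0.805). However, Gm11478, a pseudogene of 599 bases inside it on the same strand, had 89.1% to 93.3% as many reads as Vmp1 in each library. If those reads were counted for both genes, Vmp1 by itself would be left with 40.0 and 80.1 CPM (WT) and 128 and 143 CPM (KO) by library totals.

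Among the 7 conjugation genes, 2 values were positive and 5 negative, with a median of −0.14, and 0 passed the test. By library totals 6 were positive and 1 negative, with a median of 0.44. Atg5, Atg7 and Atg16l1, which are needed to attach LC3 to membrane, had values of −0.14 (SE 0.27, adjusted p = 0.752), −0.16 (SE 0.18, adjusted p = 0.603) and −0.12 (SE 0.21, adjusted p = 0.742). Atg5, the scaffold of the conjugate, stood at 41.9 and 29.5 CPM in WT and at 29.3 and 35.2 CPM in KO. Atg7, the E1-like enzyme, stood at 35.4 and 36.0 CPM in WT and at 32.2 and 31.8 CPM in KO. Atg16l1, which brings the enzyme complex to the membrane, stood at 37.7 and 45.5 CPM in WT and at 36.5 and 40.2 CPM in KO. With TMM, levels of these 3 genes lay between 29.3 and 45.5 CPM in the 4 libraries. By library totals WT replicate 1 was lowest for each, at 21.5, 18.2 and 19.3 CPM for Atg5, Atg7 and Atg16l1, against 34.6 to 53.3 CPM in the other libraries.

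With TMM, the other genes of the conjugation system had larger values, in either direction. Atg16l2, a paralogue of Atg16l1 (chromosome 7, 101289392 to 101302251), stood at 5.31 and 25.5 CPM in WT and at 36.4 and 36.4 CPM in KO (1.22, SE 0.77, adjusted p = 0.368). It was lowest in WT replicate 1, where the sums of B cell, T cell, macrophage, neutrophil, fibroblast and endothelial markers were also lowest. The part of cell makeup in its value was not tested. The value was 0.52 against WT replicate 2 alone and 2.76 against WT replicate 1 alone. As a share of the reads of both ATG16L genes it was 12.4% and 36.0% in WT and 49.9% and 47.6% in KO. Atg12, the ubiquitin-like partner of ATG5, stood at 17.0 and 19.3 CPM in WT and at 22.1 and 23.0 CPM in KO (0.31, SE 0.20, adjusted p = 0.378). Atg10, the E2-like enzyme for ATG12, stood at 20.5 and 16.1 CPM in WT and at 11.1 and 10.9 CPM in KO (−0.73, SE 0.24, adjusted p = 0.160). By library totals the Atg10 groups overlapped and its value was −0.059, so that ranking did not hold there. Atg3, the E2-like enzyme for ATG8 proteins, had a value of −0.43.

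The letters CACGTG, the core of the element that TFEB and TFE3 bind, were searched on both strands of RefSeq promoter windows (GRCm38.p6, 250 bases before to 50 after each start). They were present for 3 of the 30 members with a window, or 10%, and for 8.09% of all 27025 genes with one. All 3 belong to the conjugation system, so the stretches are printed here on the plus strand with CACGTG in capitals. The Atg3 stretch lies at chr16:45158719-45158778, the Atg5 stretch at chr10:44268279-44268338, and the Atg7 stretch at chr6:114670936-114670995, before an internal start of that gene.
Atg3: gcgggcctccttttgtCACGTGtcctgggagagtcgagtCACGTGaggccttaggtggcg
Atg5: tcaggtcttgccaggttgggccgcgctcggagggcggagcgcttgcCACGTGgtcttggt
Atg7: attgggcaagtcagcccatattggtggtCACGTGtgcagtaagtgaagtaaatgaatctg
Atg3 carried the letters 2 times, the second within TCACGTGA, which 1.12% of all genes with a window held. The 3 genes had log2 fold changes of −0.43, −0.14 and −0.16, and a match of letters does not show that a factor binds there.

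TFEB and TFE3, transcription factors that move to the nucleus when lysosomes are stressed, had the 2 smallest p-values among the positive members, and neither passed. Tfe3 (chromosome X, 7762560 to 7775202) stood at 26.7 and 22.8 CPM in WT and at 39.7 and 41.4 CPM in KO (0.71, SE 0.20, adjusted p = 0.130). Its values were 0.83 and 0.59 against WT replicates 2 and 1 alone. Sex went with genotype, so for any gene, on the X chromosome like Tfe3 or elsewhere, it cannot be told apart from the comparison. Tfeb (chromosome 17, 47737030 to 47792419) stood at 26.4 and 35 CPM in WT and at 47.5 and 44.2 CPM in KO (0.58, SE 0.23, adjusted p = 0.219). Both genes were higher in both KO libraries than in either WT library, under both scales. The ratio of Tfeb to Tfe3 reads was 0.991 and 1.53 in WT and 1.20 and 1.07 in KO, so the KO libraries lay between the WT libraries.

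ATG4 proteases, which cut ATG8 precursors and recycle them, had 1 positive and 3 negative values with TMM, 4 positive and 0 negative by library totals, and 0 passed. Atg4a, on the X chromosome like Tfe3, stood at 6.16 and 9.49 CPM in WT and at 11 and 9.40 CPM in KO (0.37, SE 0.33, adjusted p = 0.502). With TMM the Atg4a groups overlapped, with WT replicate 1 lowest. By library totals both KO libraries were higher, at 14.0 and 12.2 CPM against 3.16 and 11.1 in WT. Atg4b, Atg4c and Atg4d had values of −0.22, −0.44 and −0.69. Atg4d overlaps Kri1 and Atg4b overlaps Thap4 on the opposite strand, and those genes had 1.23 and 0.548 times the reads of the autophagy gene.

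Cargo receptors, which carry marked cargo to ATG8 proteins, had 4 negative values and 1 positive with TMM, 1 negative and 4 positive by library totals, and 0 passed. Sqstm1, which encodes p62, stood at 243 and 165 CPM in WT and at 230 and 194 CPM in KO (0.056, SE 0.33, adjusted p = 0.925). Its KO levels lay between the WT levels, and the sign turned with the WT library used, 0.37 against WT replicate 2 alone and −0.21 against WT replicate 1 alone. By library totals Sqstm1 was higher in both KO libraries, at 293 and 251 CPM against 124 and 194. Nbr1, a second ubiquitin-binding receptor (chromosome 11, 101552149 to 101581951), stood at 219 and 124 CPM in WT and at 74.0 and 74.2 CPM in KO (−1.21, SE 0.37, adjusted p = 0.147). Both KO libraries were lower under either scale, and the value against WT replicate 2 alone was −0.73.

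Optn, which encodes the mitophagy receptor optineurin, had a value of −0.31, with KO levels between the WT levels and 0.54 against WT replicate 2 alone. By library totals both KO libraries were higher for Optn, at 18.3 and 19.1 CPM against 13.5 and 11.8. The receptors Calcoco1 and Tax1bp1 had values of −0.76 and −0.23, and Epg5, a tether for fusion with late endosomes, of −0.30. All 3 turned positive with library totals (0.043, 0.42 and 0.35).

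**Figure D3:**
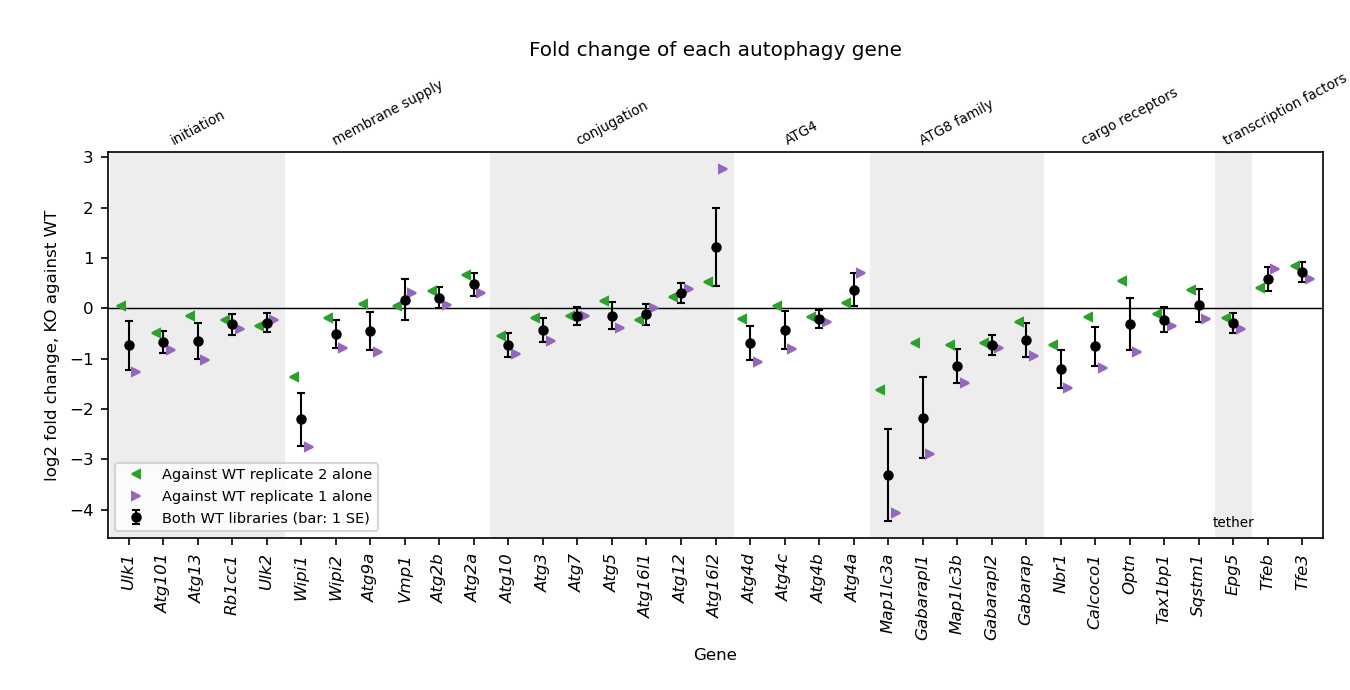
Log2 fold change of KO against WT for each autophagy gene, with both WT libraries (black, bar 1 SE) and against each WT library alone (triangles, no error shown). Map1lc3a, Wipi1 and Gabarapl1 lie lowest with both WT libraries, the fits for Atg16l2 also lie far apart (0.52 and 2.76), and Tfeb and Tfe3 lie above 0 in all 3 fits.

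Against a single WT library the spread within WT is not measured, so calls there compare KO with that library only. Against WT replicate 2 alone, 6 members were called higher and 9 lower, where 20.9% and 22.8% of all genes were called. Against WT replicate 1 alone, 6 were called higher and 22 lower, where 32.3% and 32.5% of all genes were called. The comparisons share the KO libraries. Across the 35 genes, which are not independent, log2 levels correlated at 0.996 between the KO libraries, 0.852 between the WT libraries, 0.921 and 0.922 between WT replicate 2 and KO, and 0.684 in both comparisons of WT replicate 1 with KO.

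Among 8 pairs of related genes, the ratio of reads within a library did not overlap between groups for 5. With 2 libraries a group this is common, since 34.3% of all genes were higher and 33.3% lower in level without overlap, and the count is no result about the pairs. It was lower in KO for Wipi1 to Wipi2 (1.39 and 0.793 in WT, 0.335 and 0.373 in KO), Atg16l1 to Atg16l2 (7.09 and 1.78, then 1.003 and 1.10) and Map1lc3a to Map1lc3b (1.27 and 0.389, then 0.201 and 0.218). It was higher for Atg2a to Atg2b (1.21 and 1.16, then 1.45 and 1.40) and Atg4a to Atg4b (0.184 and 0.301, then 0.398 and 0.331). In the other pairs, Ulk1 to Ulk2, Gabarapl1 to Gabarapl2 and Tfeb to Tfe3, the groups overlapped. For Gabarapl1 to Gabarapl2 the ratio was 10 in WT replicate 1 and 2.30 in WT replicate 2, against 2.37 and 2.24 in KO. With 2 libraries a group, an exact permutation test of a ratio cannot reach p = 0.05, and these are descriptions. The ratio of Map1lc3a to Map1lc3b also rests on Map1lc3b reads, whose assignment is uncertain.

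**Figure D4:**
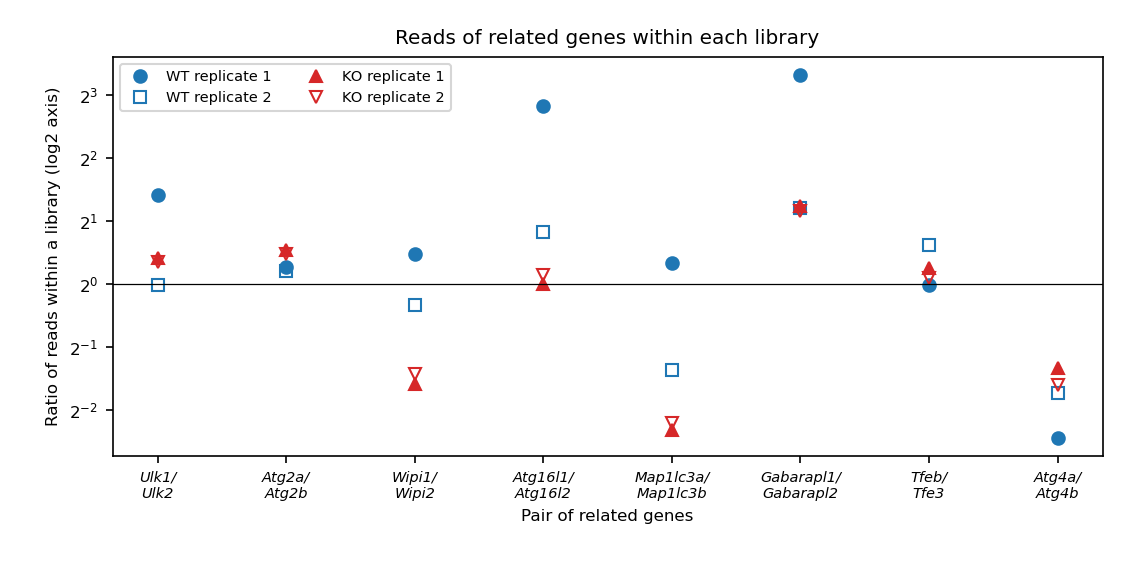
Ratio of reads between 2 related genes within each library (log2 axis) for 8 pairs; circles and squares are the WT libraries and triangles the KO libraries, and the line marks equal reads. The KO libraries lie below both WT libraries for Wipi1 to Wipi2, Atg16l1 to Atg16l2 and Map1lc3a to Map1lc3b.

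By role, the share of the reads of 34 autophagy genes (Vmp1 left out) was compared between groups. The ATG8 family took 35.1% and 24.7% in WT and 18.6% and 18.5% in KO. Tfeb and Tfe3 together took 2.02% and 3.62% in WT and 5.93% and 5.97% in KO, and the cargo receptors took 27.4% and 29.5% in WT and 32.2% and 31.1% in KO. The initiation complex held 9.81% and 10.5% in WT and 9.94% and 9.89% in KO, so the groups overlapped there. Conjugation enzymes took 7.69% and 12.8% in WT and 13.3% and 14.4% in KO, with WT replicate 1 lowest. Shares sum to the whole, so a lower ATG8 share raises the others. Of the 5 cargo receptors, 4 had negative values with TMM and 1 by library totals. Map1lc3b reads, whose assignment is uncertain, were kept. Grouping reads this way was chosen after the values were seen.

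**Figure D5:**
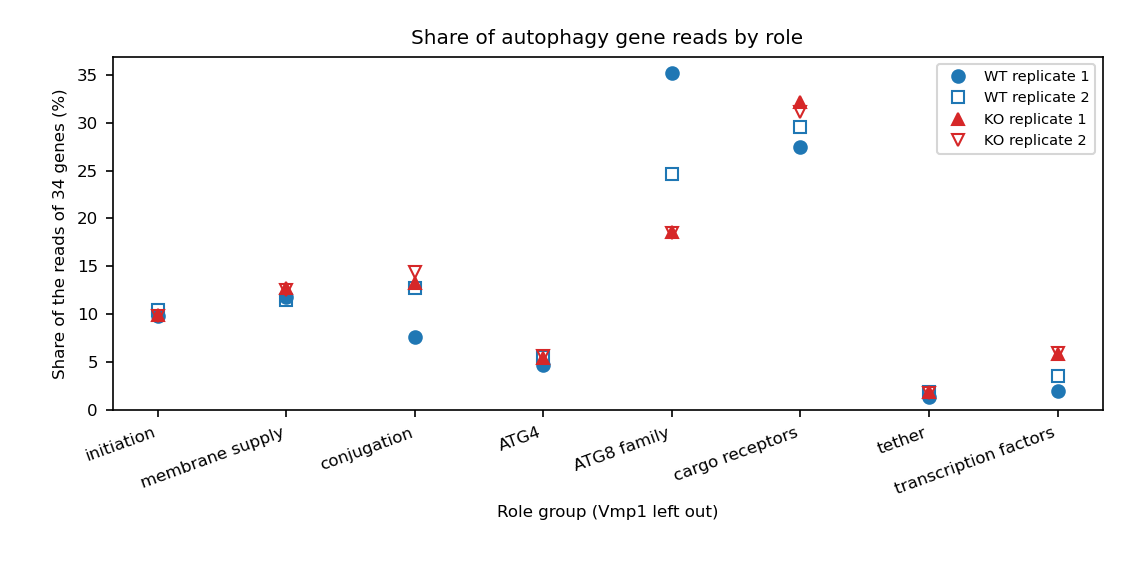
Share of the reads of 34 autophagy genes (Vmp1 left out) taken by each role group in the 4 libraries (%, axis from 0). The ATG8 family is at 35.1% and 24.7% in WT and at 18.6% and 18.5% in KO, and the transcription factors are highest in KO.

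Genes around the core machinery were also read. Of 33 upstream control genes measured, which include mTORC1, AMPK and nutrient sensors, 0 rose and 1 fell, with a median of −0.18, where 1.04% of all genes rose and 2.18% fell, so the count is near the background. The gene that fell was Prkaa2, which encodes a catalytic subunit of the energy sensor AMPK. Prkaa2 stood at 30.9 and 17.6 CPM in WT and at 0.402 and 0.578 CPM in KO (−5.59, SE 0.48, adjusted p = 0.0441), where 8 and 15 reads were counted. The other catalytic subunit gene, Prkaa1, had a value of 0.30 (17.8 and 25.0 CPM in WT, 28.2 and 24.5 in KO). Epithelial markers were also low in both KO libraries, and their part in the Prkaa2 value was not tested. With library totals the Prkaa2 call was lost (adjusted p = 0.0505) at a log2 fold change of −4.84, as it was without either KO library (0.323 and 0.294) at −5.36 and −5.87.

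Of 20 genes listed for other selective receptors and mitophagy, 1 rose and 0 fell, with a median of −0.30. Beside the same 1.04% and 2.18% of all genes, this count too is near the background. That list, called selective receptors below, also holds genes that are not cargo receptors, Irgm1 among them. Irgm1, an interferon-induced GTPase linked to autophagy of microbes, stood at 63.3 and 59.7 CPM in WT and at 345 and 318 CPM in KO (2.43, SE 0.27, adjusted p = 0.0461). Other marker sums also separated the groups by library totals. Fibroblast markers were at 179 and 232 CPM (WT) and 827 and 686 CPM (KO), neutrophil markers at 1.55 and 17.0 CPM (WT) and 86.8 and 94.5 CPM (KO), and erythroid markers at 566 and 428 CPM (WT) and 91.1 and 60.6 CPM (KO). The macrophage sums given above differed between the WT libraries. The part of cell makeup in the Irgm1 result was not tested. The Irgm1 call was lost with library totals (adjusted p = 0.146) at a log2 fold change of 3.05, and without either KO library (0.385 and 0.379) at 2.38 and 2.50. Of 17 genes listed for fusion with lysosomes, 0 passed, with a median of −0.24, beside the same shares. That list, called fusion genes below, also holds Tmem41b, Wdr45, Wdr45b and Ei24, which act outside the fusion step. The smallest p-values there were those of Tmem41b, a scramblase partner of VMP1 (−1.07, SE 0.23, adjusted p = 0.0873), and Stx17, the autophagosomal SNARE (−1.23, SE 0.28, adjusted p = 0.0970).

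The authors' deposited table of 5511 genes with an unadjusted p up to 0.05 held 5 of the 35 members, or 14.3%. It held 14.5% of all 38087 genes, but only 30898 of these had reads, while all 35 members passed the count filter. The shares are of unlike sets, so the count is no result about the members. In the authors' deposited table Tfe3 (0.73), Tfeb (0.64) and Atg12 (0.36) had positive log2 fold changes, and Gabarapl2 (−0.79) and Atg101 (−0.71) negative ones. The authors' deposited short lists of 86 higher and 71 lower genes held 0 of the 35.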

How the data were processed

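Read counts per gene, as deposited, are whole numbers with a different total in each library, per the file headers and values. The submitters' processing notes list mm10 and DESeq2 1.62 but give them no role, and no aligner or counter is named in the labels. Libraries came from rRNA-depleted total RNA, per the labels' protocols. Gene length in the table is the genomic span for 38087 of 38087 genes, so reads in introns may be included. Another table deposited by the authors holds log2 values with a median of 0 over the 4 libraries for each gene, so it gives no ratio between genes. The authors' comparison table gives log2 fold changes and unadjusted p-values. A further 8 columns of per-sample values were not used.

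The quasi-likelihood test of edgeR 4.0.16 (R 4.3.3) was run on the deposited counts over all genes, with TMM, a minimum count of 10 and total of 15, and Benjamini-Hochberg adjustment. SE is the fold change over the root of F. The step was tested on simulated data with the same spread in both groups. In these data the WT libraries differ more than the KO libraries, a setting that the simulation does not cover. Alternatives used other scaling, filters, DESeq2 1.42.0, limma-voom (limma 3.58.1), replicate blocks and left-out libraries. Members, lists and the naming rule were chosen with earlier results of these data known. The rule gives in full called members, the 6 smallest p-values in each direction, and Sqstm1, Map1lc3b, Ulk1, Atg5, Atg7, Atg16l1 and Tfeb, and from each other list the called genes or the 2 smallest p-values. Gabarapl1, Atg10, Vmp1 and Prkaa1 were added after their values were seen. Of the other lists, 33 of 35, 17 of 18 and 20 of 21 names matched.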

Additional observations from a re-analysis of the deposited data

How the results depend on the processing

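The member counts of 0 higher and 0 lower held under every alternative except DESeq2's test (3 lower) and leaving out a WT library, where 1 WT library is assumed to vary like KO. Leaving out 1 library in turn gave 0 to 6 members higher, 0 to 22 lower and a median from −0.64 to −0.17. It gave 0 to 6887 and 0 to 6922 of all genes, 0 to 9 and 0 to 17 upstream control genes (median −0.45 to −0.079), 0 to 5 and 0 to 8 fusion genes (−0.28 to −0.0017) and 0 to 4 and 0 to 11 selective receptors (−0.54 to −0.10). DESeq2's test called 1325 genes higher and 2430 lower, 1 and 4 upstream control genes, 0 and 2 fusion genes and 2 and 4 selective receptors. Without a count filter 542 and 1188 genes were called, 3 upstream control genes were lower and their median was −0.14, and a stricter filter gave 2. Library totals called 0 genes in either direction, hence 0 upstream control genes and 0 selective receptors, with medians of 0.33 (members), 0.37 (upstream control), 0.46 (fusion) and 0.39 (selective receptors). They turned the sign of Calcoco1 (0.043), Atg4d (0.081), Gabarap (0.095), Ulk1 (0.12), Atg13 (0.13), Wipi2 (0.20), Atg3 (0.26), Ulk2 (0.29), Rb1cc1 (0.32), Atg4c (0.33), Atg9a (0.34), Epg5 (0.35), Atg4b (0.40), Tax1bp1 (0.42), Atg16l1 (0.44), Atg7 (0.44), Atg5 (0.56) and Optn (0.56). Signs also turned for Optn with limma-voom (0.013) and, over the left-out libraries, for Sqstm1 (−0.21 to 0.37, also negative at −0.06 without KO replicate 1), Atg16l1 (−0.24 to 0.011), Atg4c (−0.81 to 0.039), Ulk1 (−1.27 to 0.052), Atg9a (−0.87 to 0.092), Atg5 (−0.39 to 0.14) and Optn (−0.87 to 0.54). Except for Sqstm1 and Atg16l1, whose signs turned without WT replicate 2, these turned without WT replicate 1. With the replicate number as a block, 0 genes were called in either direction, hence 0 upstream control genes and 0 selective receptors. Same-numbered libraries deviated with a correlation of −0.108 over 20695 genes. With 2 libraries a group this only sets the WT difference against the KO difference, so it cannot show whether the numbers mark pairs. A block with crossed numbers, chosen after seeing the data, called 202 and 643 genes, 0 members, 3 upstream control genes lower and 0 selective receptors. The causes of these shifts were not tested. Paralogue ratios from the authors' log2 values were not run, since those values are centred for each gene.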
